A study of Mus musculus with 13 samples.

Results

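The 49 genes described here carry out or control cell division and come from a given list of cell cycle and DNA replication genes. A gene was measured through a probe set annotated with its symbol alone, and where there were several, through the one that was brightest on average. In this way 47 of the 49 were measured, among 19752 genes in all. No such probe set was listed for Ccnb1, which encodes cyclin B1, and the probe set of Cdkn1a, which encodes the inhibitor p21, is annotated to more than 1 gene, so neither is given a value. By role, 8 of the 47 were G1 and S phase cyclins, their kinase gene Cdk2 and E2F factors, 13 belonged to origin licensing, the replicative helicase and the sliding clamp, and 3 to deoxynucleotide supply. A further 6 encoded cyclins, kinases and a phosphatase of mitotic entry, 15 worked at the spindle, the kinetochore, the chromosomes or mitotic exit, and 2 were inhibitors of cyclin-dependent kinases.

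RNA came from thymocytes sorted by flow cytometry from mice aged 2 weeks, with the sex labelled as mixed, and each sample was hybridised to 1 Affymetrix array. V2 cells are immature γδ thymocytes, sorted as TCRd+, Vg2+ and HSAhi cells without CD4 and CD8. DP cells are αβ-lineage thymocytes that carry both CD4 and CD8. Mice were wild type (WT) or carried a conditional knockout (cKO) of Sox4, an HMG box transcription factor, with a Cre driver that the sources used here do not name. Of 13 arrays, 11 entered the comparisons: for V2 3 WT and 4 cKO arrays, and for DP 2 of each genotype. The V2 titles are written in 2 ways, called V2imm and immV2 here. Whether the replicates of a group are separate animals is not stated in the labels. A p-value here therefore reflects the spread among these arrays alone, and that spread may be technical in part. The 2 DP WT arrays were not repeats of 1 sample. In replicates 3 and 5, Xist, the X-inactivation transcript, read 5.59 and 12.42 on the log2 scale. Eif2s3y, a gene of the Y chromosome, read 9.60 and 4.56. In V2 WT, Xist read 5.55 and 11.96 in V2imm and 5.67 in immV2.

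In G1, D-type cyclins with their kinases phosphorylate the retinoblastoma proteins, which releases E2F factors and lets the genes of DNA replication be transcribed, while INK4 and Cip/Kip proteins hold these kinases back. Origins are licensed by loading of the MCM helicase, and the genes of mitosis are transcribed later, in G2. Developing αβ thymocytes divide in a burst as they become double positive, for which cyclin D3 is required, and most double positive cells are then small and quiescent.

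The other 2 arrays are shown apart under their labels because their markers were those of the other population. The summed intensity of 10 double positive markers was 3801 in the array labelled DP cKO replicate 5 and 45360 in the array labelled V2 WT replicate 5 (immV2), against 4524 to 5554 in the 7 V2 arrays and 40038 to 46588 in the 4 DP arrays. Sox4, the targeted gene, read 8.71, 8.64 and 9.68 in V2 WT and 8.07, 9.60, 8.11 and 8.23 in V2 cKO on the log2 scale, and 9.37 and 8.55 in DP WT and 8.74 and 8.68 in DP cKO. Its groups overlap, and the sources used here do not say where its probes lie relative to the deleted part, so these values may check nothing. Cd24a, which encodes the sort marker HSA, read 12.21, 12.02 and 11.67 in V2 WT and 12.31, 11.61, 10.38 and 9.46 in V2 cKO. The last 2 cKO values are those of immV2. It read 11.97 and 12.27 in DP WT and 10.89 and 10.93 in DP cKO. The part of this in the member values was not tested. In the 11 arrays, 515 of the 517 values of the 47 genes lay above the median of all genes on the same array.

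All levels below are log2 RMA intensities, and all differences are log2 differences. V2 WT values are given for replicates 4 and 5 of V2imm and then replicate 3 of immV2. V2 cKO values are given for replicates 4 and 5 of V2imm and then 3 and 4 of immV2. DP WT values are for replicates 3 and 5, and DP cKO values for replicates 3 and 4.

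The first comparison asks how the division genes of the populations differ in wild-type mice. The D-type cyclins ran in opposite directions: Ccnd2 (cyclin D2) was higher and Ccnd3 (cyclin D3) lower in V2 cells than in DP cells, together with lower E2f2 and Cdkn2c. With limma, 4 of 47 members (8.51%) passed an adjusted p of 0.05, 1 higher and 3 lower in V2, beside 4.87% of all genes tested (3.2% higher and 1.67% lower). All 4 act in G1, and 0 of the 13 licensing, 3 nucleotide supply and 21 mitotic genes passed. The median difference of the 47 genes was -0.308, beside -0.0229 for all genes tested. In bulk RNA, fewer cells of a type and less RNA per cell cannot be told apart.

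Ccnd2 read 10.16, 10.16 and 11.08 in V2 WT and 9.88, 11.18, 11.39 and 11.68 in V2 cKO, against 7.57 and 7.41 in DP WT and 7.63 and 7.87 in DP cKO. Every V2 array lay above every DP array, and the 3 lowest V2 values were those of V2imm arrays. The fitted difference, V2 minus DP, was 3.15 in WT (SE 0.30, adjusted p = 2.62e-05) and 3.28 in cKO (SE 0.28, adjusted p = 9.44e-06), with the V2 mean taken over both title sets.

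Ccnd3 ran the other way, at 9.21, 9.56 and 10.47 in V2 WT and 8.44, 10.38, 10.26 and 10.05 in V2 cKO, against 11.93 and 11.45 in DP WT and 11.86 and 12.01 in DP cKO. All V2 arrays were below all DP arrays, and V2 cKO replicate 4 (V2imm) was the lowest. The difference was -1.80 in WT (SE 0.41, adjusted p = 0.0227) and -2.15 in cKO (SE 0.39, adjusted p = 0.00429). Another fit of the 11 arrays gave each group and title set its own mean. There the difference was -2.31 in WT and -2.53 in cKO for V2imm, and -1.22 and -1.78 for immV2. Whether the title sets differ was not tested. In cKO the V2imm arrays read 8.44 and 10.38, below and above the immV2 cKO arrays. With the V2imm arrays as the only V2 arrays in the fit, Ccnd3 passed in both genotypes. The immV2 set has 1 WT array, so only differences are given for it. Over 23 other settings that left out the 2 arrays shown apart, the WT call of Ccnd3 held in 17 and the cKO call in 21.

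E2f2 encodes an activating E2F factor. It read 8.29, 8.39 and 8.45 in V2 WT and 8.26, 8.73, 9.16 and 9.07 in V2 cKO, against 10.28 and 10.66 in DP WT and 10.40 and 10.66 in DP cKO. The V2 WT arrays lay close together, the V2 cKO arrays were more spread, and the populations did not overlap. The difference was -2.02 in WT (SE 0.22, adjusted p = 8.68e-05) and -1.72 in cKO (SE 0.21, adjusted p = 0.000214). Of the related genes, E2f1, another activator, differed by 0.03 in WT and 0.29 in cKO, and E2f8, an atypical repressor, by -0.88 (adjusted p = 0.151) and -0.76 (adjusted p = 0.201), none past the threshold.

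Of the inhibitor genes, Cdkn2c, which encodes the INK4 protein p18, was lower in V2 in both genotypes. It read 8.28, 8.07 and 8.33 in V2 WT and 7.77, 8.08, 8.73 and 8.23 in V2 cKO, against 9.29 and 9.64 in DP WT and 9.40 and 9.68 in DP cKO. No V2 array reached the lowest DP array. The difference was -1.17 in WT (SE 0.22, adjusted p = 0.00606) and -1.33 in cKO (SE 0.21, adjusted p = 0.00145). In the fit with a mean for each group and title set, the WT difference was -1.29 for V2imm and -1.14 for immV2. The WT call held in 20 of 23 other settings that left out the 2 arrays shown apart.

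Cdkn1b, which encodes the Cip/Kip protein p27, read 9.999, 9.72 and 10.15 in V2 WT and 9.67, 9.92, 10.24 and 10.31 in V2 cKO, against 10.79 and 10.68 in DP WT and 11.07 and 10.80 in DP cKO. It too separated the populations without overlap. The WT difference of -0.71 (SE 0.19, adjusted p = 0.0555) missed the threshold, and the cKO difference of -0.90 (SE 0.18, adjusted p = 0.00924) passed it. In the fit with a mean for each group and title set, it was -0.87 in WT and -1.14 in cKO for V2imm. For immV2 it was -0.58 and -0.66. With the V2imm arrays as the only V2 arrays in the fit, Cdkn1b passed in cKO and not in WT. The WT result depended on the fit. Over 23 other settings that left out the 2 arrays shown apart, Cdkn1b passed in 7 in WT and in 20 in cKO. Another probe set of Cdkn1b, not used for the test, differed in group means by -1.69 in WT and -1.09 in cKO.

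**Figure D1:**
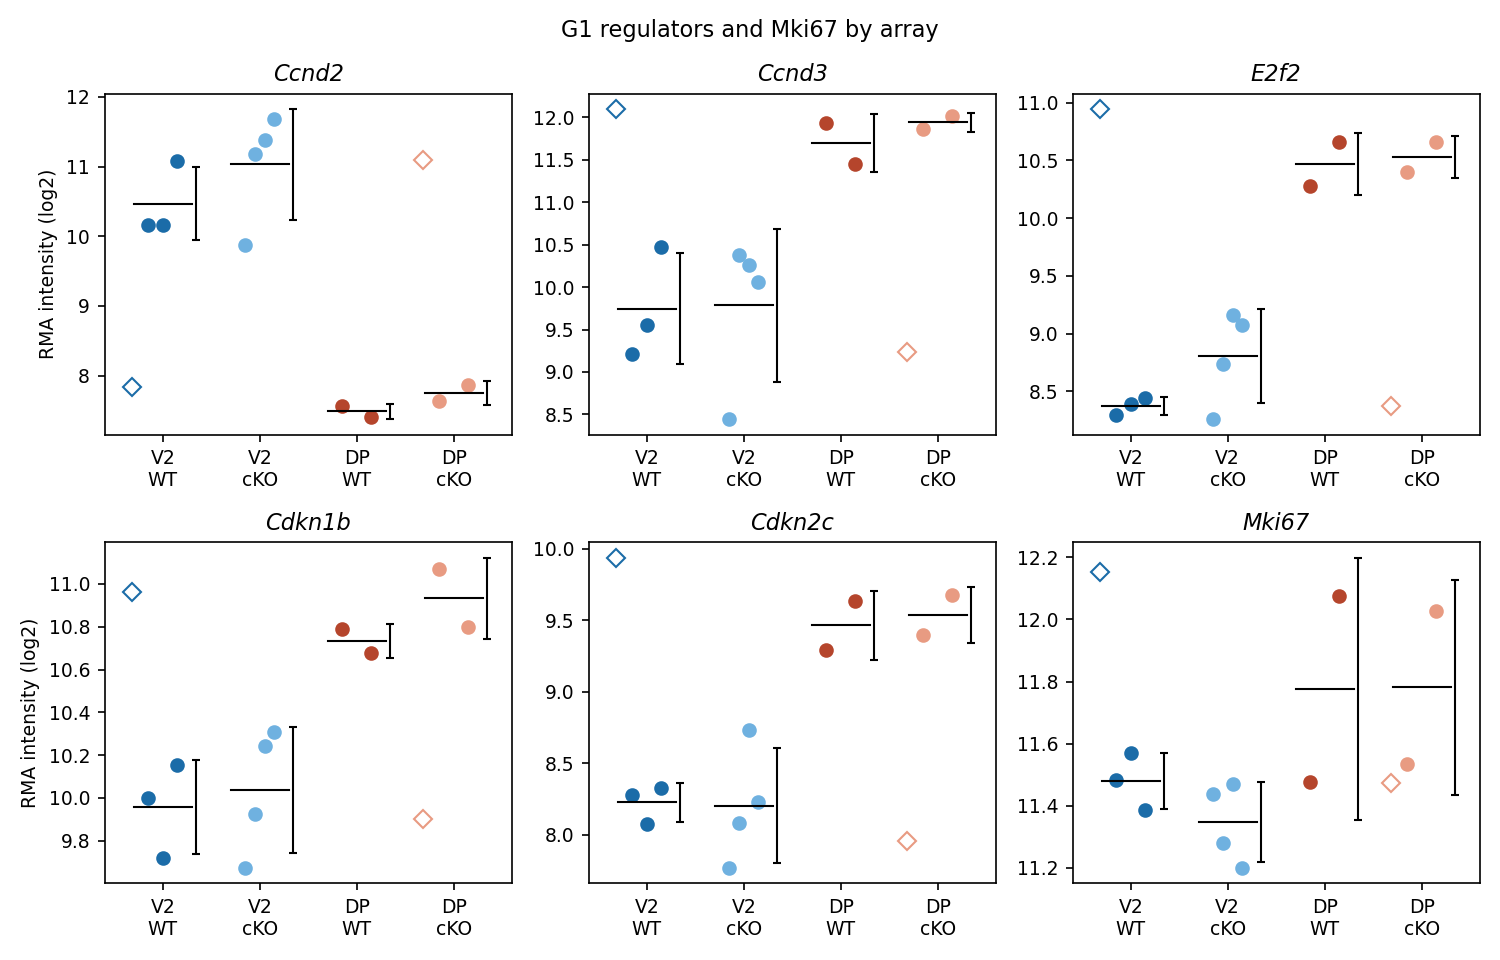
Log2 RMA intensity (y axis) of 6 genes by population and genotype (x axis). Filled points are the 11 arrays compared, lines and bars the mean and SD of each group, and open diamonds the 2 arrays shown apart, placed at their labels. Ccnd2 is at 9.88 or more in every V2 array and at 7.87 or less in every DP array, Ccnd3, E2f2, Cdkn1b and Cdkn2c lie the other way, and Mki67 overlaps.

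The promoters of the called G1 genes are printed so that their sequence can be read beside these differences. RefSeq entries on GRCm38.p6 matched 37 of the 47 measured genes by symbol. Ccnd2 is named only. Each sequence holds the 250 bases upstream of the most upstream listed start, 5′ to 3′ on the gene's strand. Capitals mark the NF-Y box CCAAT, which reads ATTGG from the other strand, the CHR element TTTGAA of late cell cycle genes, which reads TTCAAA from the other strand, or the E2F site GCGGGAA, which reads TTCCCGC from the other strand. The intervals are chr17:47504801-47505050 on the plus strand for Ccnd3, chr4:136172024-136172273 on the plus strand for E2f2, chr4:109666757-109667006 on the minus strand for Cdkn2c and chr6:134920151-134920400 on the plus strand for Cdkn1b.
Ccnd3: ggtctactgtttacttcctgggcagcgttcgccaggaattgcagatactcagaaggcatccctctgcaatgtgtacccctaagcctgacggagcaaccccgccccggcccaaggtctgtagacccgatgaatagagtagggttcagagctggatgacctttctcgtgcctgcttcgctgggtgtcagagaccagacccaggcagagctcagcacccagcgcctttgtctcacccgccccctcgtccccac
E2f2: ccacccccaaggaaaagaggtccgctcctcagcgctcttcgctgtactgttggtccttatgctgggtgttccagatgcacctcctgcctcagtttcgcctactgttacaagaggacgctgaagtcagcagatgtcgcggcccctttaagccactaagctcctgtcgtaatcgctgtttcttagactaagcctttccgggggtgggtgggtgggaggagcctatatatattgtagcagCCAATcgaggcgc
Cdkn2c: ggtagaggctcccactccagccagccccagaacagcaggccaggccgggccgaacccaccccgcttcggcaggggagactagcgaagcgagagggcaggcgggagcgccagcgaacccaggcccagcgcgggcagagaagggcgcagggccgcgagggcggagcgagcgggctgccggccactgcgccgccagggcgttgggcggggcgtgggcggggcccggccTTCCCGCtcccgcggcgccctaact
Cdkn1b: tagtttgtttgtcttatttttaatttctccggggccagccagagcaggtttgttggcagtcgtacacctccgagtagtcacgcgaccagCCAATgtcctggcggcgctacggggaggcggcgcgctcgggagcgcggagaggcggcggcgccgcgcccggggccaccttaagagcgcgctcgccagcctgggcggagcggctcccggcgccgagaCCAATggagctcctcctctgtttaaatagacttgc

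In these windows Ccnd3 held 0 matches, E2f2 held 1 NF-Y box, Cdkn2c held 1 E2F site and Cdkn1b held 2 NF-Y boxes. Over the 37 genes with an entry, 29 (78.4%) held an NF-Y box on either strand in the window of any listed start. Among all 27025 genes with an entry, measured here or not, 37.5% did. The number of listed starts was not matched. The count was 4 of 4 for mitotic entry, 10 of 12 for spindle and exit and 8 of 10 for licensing. A CHR element was held by 11 (29.7%, beside 18.3% of all) and an E2F site by 5 (13.5%, beside 4.4%). A match describes the letters and is not a bound site.

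The E-type cyclins, which drive entry into S phase with Cdk2, did not separate the populations. Ccne1 read 9.13, 9.05 and 8.78 in V2 WT and 9.14, 9.16, 9.24 and 9.27 in V2 cKO, against 9.12 and 9.21 in DP WT and 8.75 and 9.35 in DP cKO. Ccne2 read 9.21, 8.64 and 8.19 in V2 WT and 10.01, 8.52, 9.02 and 8.46 in V2 cKO, against 9.46 and 9.79 in DP WT and 8.83 and 9.68 in DP cKO. Both overlapped, with a Ccne2 difference of -1.04 in WT (SE 0.39, adjusted p = 0.197) and -0.26 in cKO (SE 0.36, adjusted p = 0.885). Cdk2 differed by -0.24 (SE 0.26) in WT and -0.39 (SE 0.25) in cKO.

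The cKO comparison has its own 4 V2 and 2 DP arrays, but it is not separate from the WT comparison: both come from 1 fit, which estimates the title set difference from WT and cKO V2 arrays together and gives them 1 estimate of the spread. In cKO 5 of 47 members (10.6%) passed, 1 higher and 4 lower in V2, beside 5.45% of all genes tested (3.5% higher and 1.94% lower). The 4 members called in WT were called again in the same direction, which is 8.51% of the 47 and compares with 3.38% of all genes tested. In sign alone, 42 of 47 members (89.4%) were alike in WT and cKO, 33 below and 9 above zero, beside 68.1% of all genes. Over both genotypes, every V2 array was above every DP array for 2 members (4.26%, beside 4.79% of all genes) and below for 6 (12.8%, beside 3.49%).

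**Figure D2:**
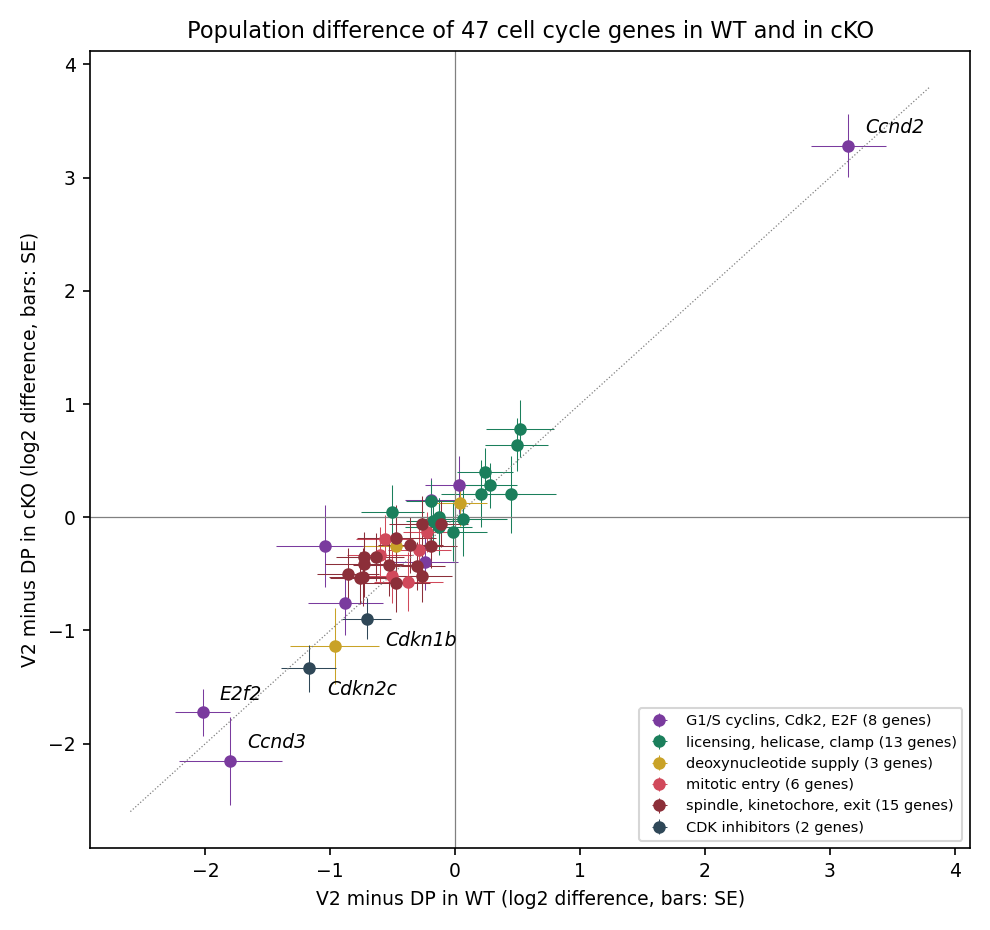
Difference V2 minus DP in cKO (y axis, log2) against the same difference in WT (x axis, log2) for the 47 genes, coloured by role, with bars of 1 SE and a dotted line of equality. Ccnd2 (3.15 in WT) stands alone at the upper right, and E2f2, Ccnd3, Cdkn2c and Cdkn1b lie at the lower left; the licensing genes lie on both sides of 0 and the 21 mitotic genes below it on both axes.

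Of the 13 licensing, helicase and clamp genes 0 passed in either genotype. In WT 7 were above and 6 below zero with a median of 0.0654, and in cKO 9 and 4 with a median of 0.14. Mcm3, a subunit of the MCM helicase ring, read 9.36, 9.44 and 9.19 in V2 WT and 9.25, 9.83, 9.66 and 9.22 in V2 cKO, against 8.71 and 8.86 in DP WT and 8.26 and 9.15 in DP cKO. All V2 arrays were above all DP arrays by a narrow gap, and the difference was 0.52 in WT (SE 0.27, adjusted p = 0.454) and 0.78 in cKO (SE 0.25, adjusted p = 0.116). Of other subunits, Mcm6 differed by 0.49 and 0.64 and Mcm7 by 0.07 and -0.01. Cdt1, which loads the ring, differed by -0.02 and -0.13, and Pcna, the sliding clamp, by -0.13 and 0.00. Gins1, a part of the active helicase, differed by -0.50 (SE 0.25) in WT and 0.05 in cKO.

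Of the 3 genes of deoxynucleotide supply 0 passed. Rrm2, the regulated subunit of ribonucleotide reductase, read 10.17, 10.03 and 10.38 in V2 WT and 9.05, 10.46, 10.62 and 10.13 in V2 cKO, against 11.13 and 11.34 in DP WT and 10.83 and 11.59 in DP cKO. Every V2 array was below every DP array, with V2 cKO replicate 4 (V2imm) the lowest. Its difference was -0.96 in WT (SE 0.36, adjusted p = 0.197) and -1.14 in cKO (SE 0.34, adjusted p = 0.0763). Rrm1, the other subunit, differed by 0.04 and 0.13, and Tyms, thymidylate synthase, by -0.47 and -0.26.

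Of the 21 mitotic genes 0 passed in either genotype, while all 21 had values below zero in both, with medians of -0.471 in WT and -0.352 in cKO. Mki67, which encodes the proliferation marker Ki-67, read 11.48, 11.57 and 11.39 in V2 WT and 11.44, 11.28, 11.47 and 11.20 in V2 cKO, against 11.48 and 12.08 in DP WT and 11.54 and 12.03 in DP cKO. In each genotype 1 DP array was within or near the V2 range and the other above it. The difference was -0.31 (SE 0.23) in WT and -0.43 (SE 0.21) in cKO. Top2a, the topoisomerase of chromosome condensation and segregation, read 11.17, 11.05 and 11.12 in V2 WT and 11.18, 11.10, 10.96 and 10.85 in V2 cKO, against 11.14 and 11.42 in DP WT and 11.01 and 11.54 in DP cKO. Its groups overlapped in the same way, with differences of -0.19 and -0.26.

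Nearer the threshold in WT were Nusap1, a spindle microtubule protein (-0.86, SE 0.25, adjusted p = 0.0754), and Cdc20, an activator of the anaphase-promoting complex (-0.73, SE 0.23, adjusted p = 0.101). Ube2c, a ubiquitin-conjugating enzyme of that complex, read 10.94, 10.90 and 10.30 in V2 WT and 10.49, 10.80, 10.70 and 10.55 in V2 cKO, against 11.09 and 11.77 in DP WT and 11.07 and 11.28 in DP cKO. It was the 1 mitotic member with all V2 arrays below all DP arrays (-0.76, SE 0.24, adjusted p = 0.114 in WT). In mitotic entry the WT differences ran from -0.60 for Cdk1, the mitotic kinase, to -0.23 for Cdc25c, a phosphatase that activates it.

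**Figure D3:**
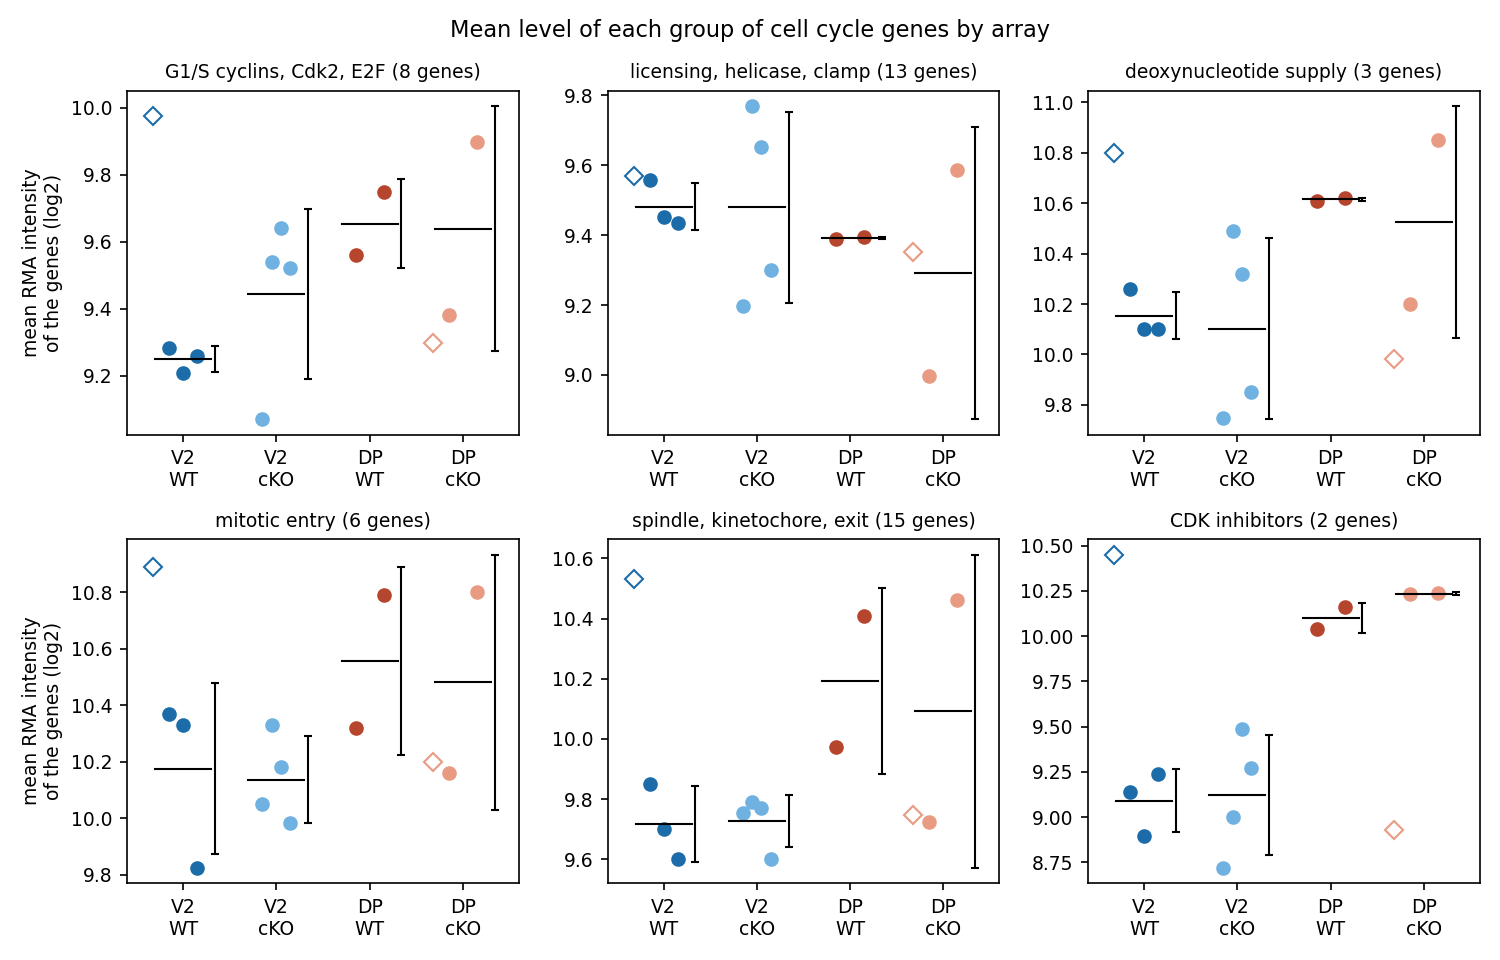
Mean log2 RMA intensity over the genes of each role (y axis) by group of arrays (x axis), with filled points for the 11 arrays, lines and bars for the group mean and SD, and open diamonds for the 2 arrays shown apart. The inhibitors separate V2 (8.72 to 9.49) from DP (10.04 to 10.24), while in the mitotic groups the DP arrays of each genotype lie apart from each other.

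The sign of the mitotic values in cKO rested on a single DP array. Without DP cKO replicate 4, 10 of 21 mitotic genes were below zero and the median was 0.00891, while without DP cKO replicate 3 it was -0.705. In WT, 18 of 21 were below zero without DP WT replicate 5 (median -0.252). The median of all 47 genes in cKO went from -0.255 to 0.0921 without DP cKO replicate 4, where 6 members passed, with Mcm3 and Mcm6 added and Ccnd3 lost.

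The DP arrays of 1 genotype differed widely in these genes. DP cKO replicate 4 was above DP cKO replicate 3 in 46 of 47 members, with a median gap of 0.623, beside -0.00276 for all genes. Within DP WT, replicate 5 was above replicate 3 in 34 of 47 (median 0.281, beside 0.0102 for all genes). Here the roles parted: all 6 genes of mitotic entry and 14 of 15 of spindle and exit were higher in replicate 5, with medians of 0.499 and 0.42, against 6 of 13 licensing genes with a median of -0.0548. These are descriptions of single arrays, without a test.

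Values of other genes are given beside this. Xist, the X-inactivation transcript, was 12.42 in DP WT replicate 5 and 5.61 in DP cKO replicate 4, the arrays with the higher mitotic values, and 5.59 and 5.52 in replicate 3 of DP WT and DP cKO. The summed intensity of 14 skeletal muscle genes was 5694 in DP cKO replicate 3, 3431 in DP cKO replicate 4, 2713 in DP WT replicate 3 and 1741 in DP WT replicate 5, against 1548 to 1976 in the V2 arrays, and its part in the member values was not tested. The sum of 12 macrophage and dendritic cell genes was 2568 to 3521 in the 4 DP arrays, with 3 of the 12 above the array median throughout.

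**Figure D4:**
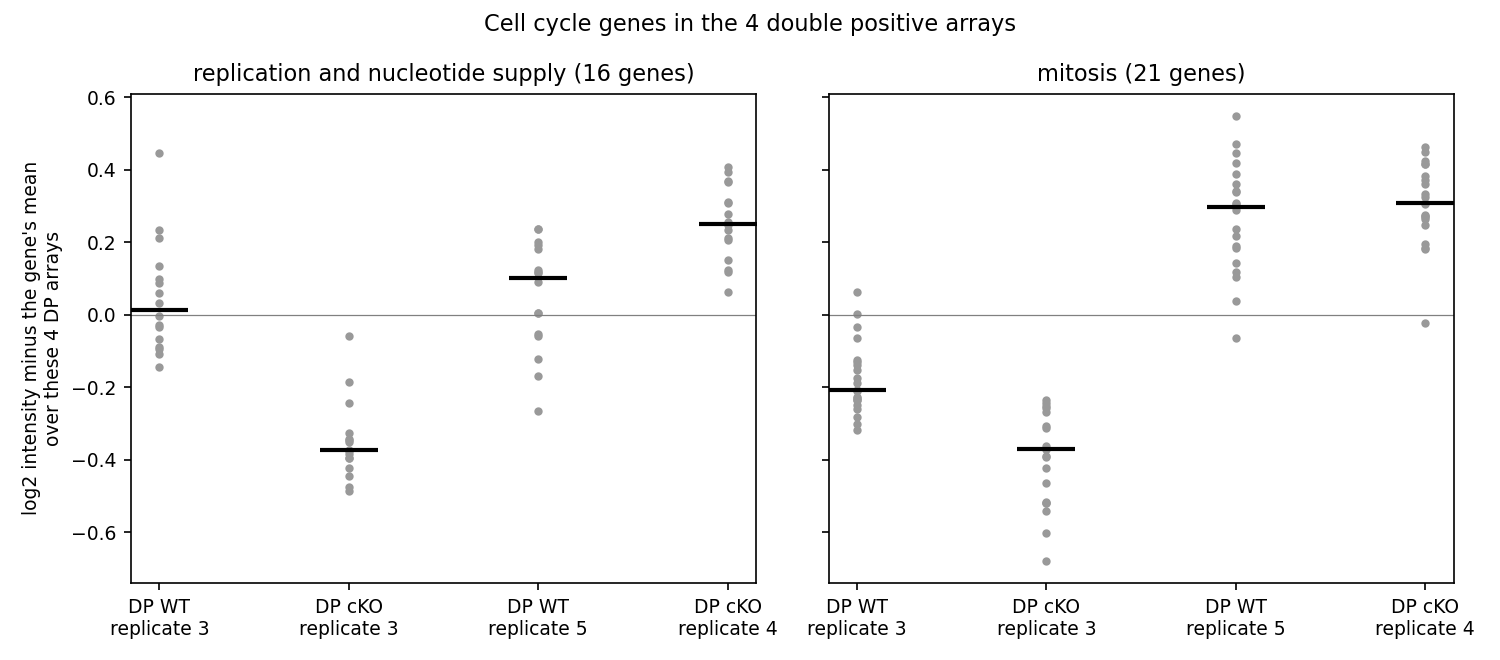
Each gene's log2 RMA intensity minus its own mean over the 4 DP arrays (y axis), for replication and nucleotide supply (left, 16 genes) and mitosis (right, 21 genes), by array (x axis); grey points are genes and black bars the median. In DP cKO replicate 3 every gene of both panels lies below 0, and the mitotic medians are above 0 in DP WT replicate 5 and DP cKO replicate 4.

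Other genes of the pathway, from lists that hold none of the 47, give the background of these members. Of 33 other G1 regulators and anti-proliferative genes, 3 were higher and 4 lower in V2 in each genotype, beside 3.2% of all genes higher and 1.67% lower in WT and 3.5% and 1.94% in cKO, with list medians of -0.181 in WT and -0.179 in cKO. In WT the higher ones included Cdk6, a kinase partner of D-type cyclins (2.10, SE 0.28), and the transcription factor gene Myc (1.49, SE 0.20), and the lower ones E2f7, an atypical repressor (-1.29, SE 0.24), and Btg2, an anti-proliferative gene (-1.09, SE 0.20). In cKO they included Cdk4, the other kinase of D-type cyclins (1.06, SE 0.21), and E2f3, an activating E2F (1.02, SE 0.23), on the higher side and E2f7 (-1.08, SE 0.23) and Btg1 (-0.87, SE 0.23) on the lower. For Cdk6 and Myc the populations lay closer in cKO than in WT. Mean levels in V2 and DP were 11.44 and 9.34 in WT and 10.98 and 10.1 in cKO for Cdk6. For Myc they were 10.28 and 8.71 in WT and 10.05 and 9.62 in cKO.

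Of 53 other replication and S phase genes 0 passed in either genotype, with medians of 0.0253 and 0.138. Hells (0.63) and Donson (-0.45) had the smallest p in WT, and Cdca7 (-0.85) and Pola2 (0.52) in cKO. Of 61 other mitotic genes, 0 were higher and 5 lower in V2 WT, beside 1.67% of all genes lower, led by Cdkn3, a phosphatase that acts on cyclin-dependent kinases (-1.28, SE 0.25, adjusted p = 0.00762), and Fbxo5, an inhibitor of the anaphase-promoting complex (-0.99, SE 0.23, adjusted p = 0.0232). In cKO 1 of the 61 was lower, beside 1.94% of all genes, which is near the background: Cdkn3 again (-0.87, SE 0.23, adjusted p = 0.0484), and the medians were -0.412 and -0.175. Of 14 p53 target genes 2 were lower in both genotypes, beside 1.67% of all genes in WT and 1.94% in cKO: the death receptor gene Fas (-2.77, SE 0.19 in WT and -2.35, SE 0.18 in cKO) and Trp53inp1 (-1.07, SE 0.20 and -1.08, SE 0.19).

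The second comparison asks whether the Sox4 knockout changes the division genes in V2 cells. No change was detectable: with limma 0 of 47 members passed, and 0 of 19752 genes did (0%). At an unadjusted p below 0.05 there were 0 members and 757 genes in all. The median difference, cKO minus WT, was -0.00602, beside 0.0079 for all genes, and members ran from -0.31 for Mcm5 to 0.42 for Ccne2. The 95% interval of the difference held 0 for 47 of 47 genes and stayed within 1 log2 unit of 0 for 46. With SEs of 0.149 to 0.347, smaller differences could not be detected.

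Of the members with the smallest p on the higher side, E2f2 differed by 0.36 (95% interval -0.04 to 0.77) and Ccnd2 by 0.40 (-0.14 to 0.95). In both, by the values above, V2 cKO replicate 4 (V2imm) lay below all V2 WT arrays and the other 3 cKO arrays above all of them. Gins1 read 7.31, 6.92 and 7.43 in V2 WT and 7.51, 7.78, 7.73 and 7.37 in V2 cKO (0.37, interval -0.09 to 0.83). Cdc20 read 8.80, 8.46 and 8.44 in V2 WT and 8.76, 9.10, 8.82 and 8.64 in V2 cKO (0.30, interval -0.12 to 0.71). The genotypes overlapped in both. Every cKO array was above every WT array for 2 members, Ccne1 and the kinetochore gene Cenpf, beside 1.69% of all genes, and below for 0, beside 1.76%.

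On the lower side, Ccna2, cyclin A2 of S phase and mitotic entry, read 12.19, 12.21 and 11.16 in V2 WT and 11.31, 11.81, 11.50 and 11.22 in V2 cKO (-0.31, interval -0.81 to 0.19). Its V2imm WT arrays were above all cKO arrays and its immV2 WT array below them. Mcm5, a helicase subunit, read 10.13, 10.36 and 10.26 in V2 WT and 9.12, 10.59, 10.30 and 9.82 in V2 cKO (-0.31, interval -0.97 to 0.34), with V2 cKO replicate 4 (V2imm) far below the rest. Kif11, a spindle motor, read 10.88, 10.79 and 10.71 in V2 WT and 10.52, 10.60, 10.77 and 10.39 in V2 cKO (-0.22, interval -0.71 to 0.28), with overlap. The difference was -0.21 for Rrm2, -0.12 for Mki67, -0.07 for Top2a, -0.11 for Ccnd3, 0.01 for Cdkn1b and -0.09 for Cdkn2c.

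V2 cKO replicate 4 (V2imm) had the lowest upper quartile of intensity of all arrays, 332.7, and was below the mean of the other V2 arrays in 29 of 47 members (median -0.126, beside 0.0908 for all genes). Without it the median knockout difference of the members was 0.0959, and 0 passed. The summed intensity of 7 γδ markers was 11909 to 13104 in V2 WT and 4653 to 8839 in V2 cKO. Xist was 5.55 and 11.96 in the V2imm WT arrays, 11.87 and 11.82 in the V2imm cKO arrays and 5.36 to 6.08 in the immV2 arrays compared. Eif2s3y was 8.61 to 9.70 in V2imm and 9.29 to 9.60 in immV2. In the V2imm arrays with high Xist it read 8.77 in WT and 8.91 and 8.61 in cKO. Transcripts of both sexes were thus present in each of these arrays, which may hold RNA of more than 1 animal. The mix of sexes ran in part with the title set. Cd74, a gene of macrophages, dendritic cells and B cells, was 8.19 to 10.98 in the V2imm arrays of V2 and 6.19 to 7.77 in the immV2 arrays. The sum of 12 macrophage and dendritic cell genes was 2243 to 4865 in V2 WT and 2565 to 8136 in V2 cKO, and the part of these in the member values was not tested. Within V2imm E2f2 differed by 0.15 (SE 0.24) and within immV2 by 0.67 (SE 0.29), and Ccnd2 by 0.37 (SE 0.34) and 0.45 (SE 0.42).

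In DP cells 0 of 47 members passed, beside 5 of 19752 genes (0.0253%, with 0.0152% higher and 0.0101% lower in cKO). The median knockout difference of the members was -0.0812, beside 0.00253 for all genes, and members ran from -0.37 for Ccne2 to 0.26 for Ccnd2. At an unadjusted p below 0.05 there were 0 members and 535 genes in all. The interval held 0 for 47 of 47 members and stayed within 1 log2 unit for 44, with SEs of 0.193 to 0.448. With 2 arrays in each genotype, every cKO array was above every WT array for Ccnd2 and Cdkn1b, beside 15.8% of all genes, and below for Cdc6, beside 14%.

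Cdkn1b differed by 0.20 (interval -0.25 to 0.65), Ccnd2 by 0.26 (-0.44 to 0.97) and Ccnd3 by 0.24 (-0.72 to 1.21). Bub1b, a spindle checkpoint kinase, read 9.65 and 9.88 in WT and 9.53 and 10.30 in cKO (0.15). On the lower side Cdc6, a licensing factor, read 8.26 and 8.17 in WT and 7.60 and 8.17 in cKO (-0.33, interval -0.80 to 0.15), and its upper cKO value was level with the lower WT value. Bub1, another checkpoint kinase, read 9.24 and 10.02 against 8.79 and 9.83 (-0.32), Nusap1 read 11.46 and 11.83 against 11.10 and 11.71 (-0.24), and Ube2c differed by -0.26. For Bub1b, Cdc6, Bub1, Nusap1 and Ube2c the gap between the arrays of at least 1 genotype was larger than the difference between genotypes. The median of the 21 mitotic genes turned with the arrays used, from -0.376 without DP cKO replicate 4 to 0.261 without DP cKO replicate 3.

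**Figure D5:**
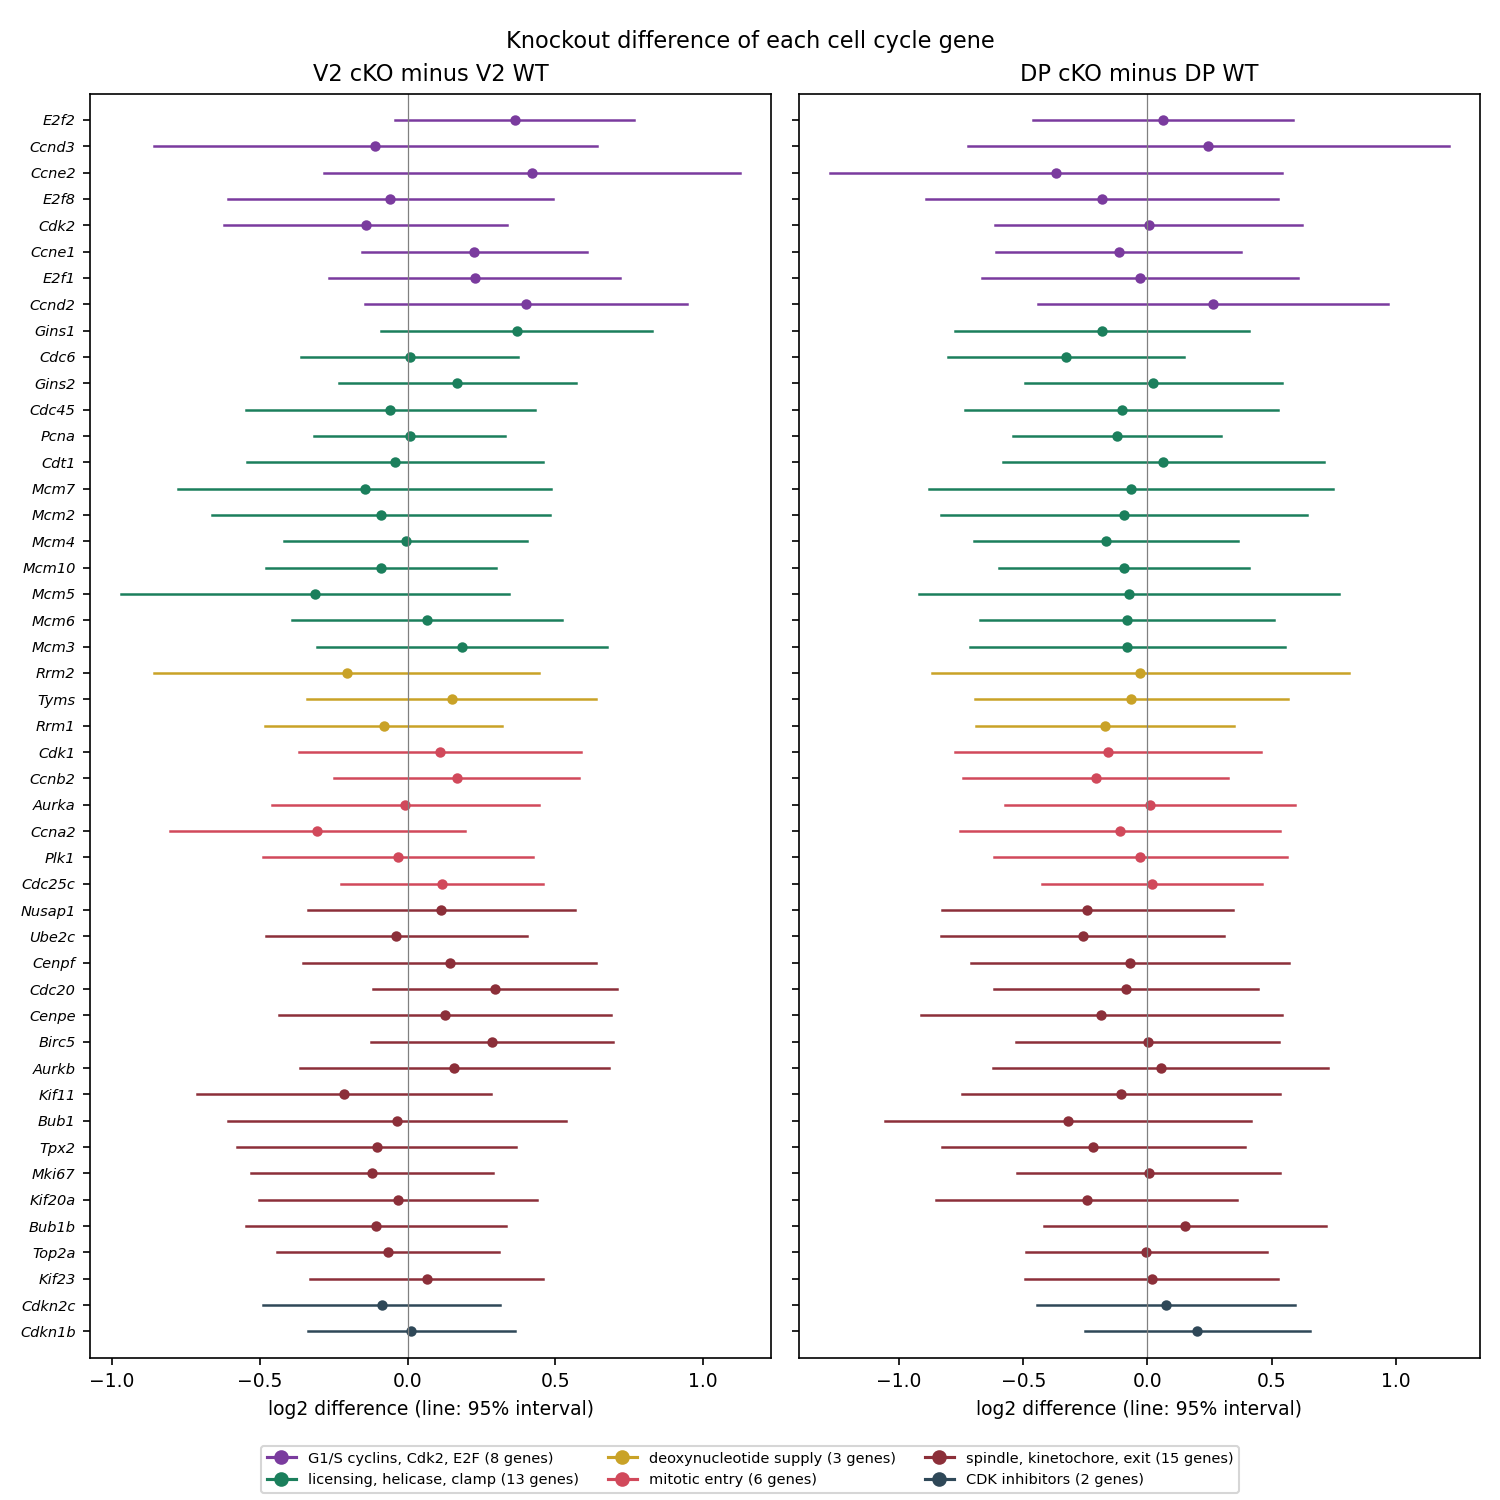
Knockout difference, cKO minus WT, of each of the 47 genes (x axis, log2; genes on the y axis) in V2 (left) and DP (right), with points for the estimate and lines for the 95% interval, coloured by role. Every line crosses 0 in both panels.

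The knockout differences of V2 and DP were compared by their interaction. With limma 0 of the 47 genes passed and 0 of all genes did (0%), and at an unadjusted p below 0.05 there were 0 members and 372 genes in all. Member values ran from -0.35 for Ccnd3 (SE 0.57) to 0.79 for Ccne2 (SE 0.53), with Gins1 at 0.55 (SE 0.35) and Cdc20 at 0.38 (SE 0.31). All 47 intervals held 0, and 28 stayed within 1 log2 unit, so for the rest a 2-fold difference between the populations lies inside the interval. Of the 33 other G1 regulators and anti-proliferative genes, Myc and Cdk6 had the smallest p, and neither passed. Their values were -1.07 (95% interval -1.66 to -0.47) and -1.22 (-2.05 to -0.39), so these intervals did not hold 0.

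The related lists also held 0 called genes in both knockout comparisons. In V2 the smallest p in them belonged to Tob1, an anti-proliferative gene (0.63, SE 0.17, adjusted p = 0.522). In DP it belonged to Myc (0.91, SE 0.22, adjusted p = 0.515), with Cdk6 at 0.76 (SE 0.30, adjusted p = 1). Of the 61 other mitotic genes 49 had values above zero in V2 (median 0.117) and 17 in DP (median -0.0859). Among all 19752 genes, 10295 were above zero in V2 and 10028 in DP. The mitotic members did not share the lean in V2, where 3 of 6 for entry and 7 of 15 for spindle and exit were above zero. In DP these counts were 2 and 5.

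With all 13 arrays as labelled, 0 of 47 members passed in any of the 5 comparisons, beside 0.0557% of all genes for the populations in WT and 0.0354% in cKO. Ccnd2 was then 2.33 in WT (SE 0.96) and 2.17 in cKO (SE 0.85). The array labelled DP cKO replicate 5 read 11.10 for Ccnd2, 9.23 for Ccnd3 and 8.38 for E2f2, within the range of the V2 arrays. The array labelled V2 WT replicate 5 (immV2) read 7.84, 12.10 and 10.95, close to the DP arrays.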

How the data were processed

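RNA of sorted thymocytes was measured on 13 Affymetrix arrays. The deposited files hold linear intensity values per probe set, which the authors made with Affymetrix Power Tools by RMA (background correction, quantile normalization and summary of probes), per the submitters' processing notes; the sources used here give no tool version. RMA with quantile normalization brings arrays closer in distribution, so an overall shift in RNA per cell cannot be seen, and precision is limited by the number of arrays. The deposited values were not fully alike in distribution. Their upper quartile ran from 332.7 in V2 cKO replicate 4 (V2imm) to 426.2 in V2 cKO replicate 5 (V2imm). The part of this in the member values was not tested.

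Intensities were taken to log2. Of 24922 probe sets, 21425 had 1 gene symbol, 1399 several and 2098 none listed, and 21347 of the first were matched to RefSeq by gene ID, which changed 0 symbols. The probe set with the highest mean was used for the 921 genes with more than 1. Differences were tested on 19752 genes with limma 3.58.1 in R 4.3.3 (two-sided, intensity trend, Benjamini-Hochberg over all genes, threshold 0.05), in 1 fit of 4 group means with the V2 title set as covariate and 6 residual degrees of freedom. The fit was also run on simulated data with noise drawn independently for each gene and array. Shifts shared by many genes of 1 array were not simulated. The 2 arrays whose markers go against their labels keep their labels and were left out; all 13 arrays are an alternative, as are 24 other settings.

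Full values are given for members called, or otherwise the 4 with the smallest p in each direction, and for Mki67, Top2a, the D and E cyclins and the inhibitors; from each related list the 2 called genes with the largest difference in each direction, or the 2 with the smallest p, are named. Members and lists were chosen with earlier results of these data known. Residual correlations over genes of arrays with the same replicate number were 0.179 for DP replicate 3, but -0.504 for immV2, and -0.354 and -0.223 for V2imm. The fit makes the V2 residuals cancel out within each genotype and each title set, which by itself pushes the V2 correlations below zero. These values therefore cannot show whether the numbers mark pairs. Numbers were not taken as pairs in the main fit.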

Additional observations from a re-analysis of the deposited data

Results flagged for a closer look

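In 94 sets of 4 arrays (the 47 members in V2 cKO and in the arrays labelled V2 WT), 8 held a value far from the others by Dixon's test, where chance gives about 1 in 20. Of these, 4 were in V2 cKO and 4 in V2 WT. The V2 WT sets include the array shown apart for its DP markers, so the total of 8 cannot be set against that rate. In V2 cKO replicate 4 (V2imm), Ccnd3 was 8.44 (nearest 10.05) and Cdk2 8.79 (nearest 9.56). Cdk1 was 10.28 in V2 cKO replicate 4 (immV2), against 10.71 in the nearest array, and Tpx2, a spindle assembly factor, was 9.35 in V2 cKO replicate 5 (V2imm), against 8.99. In the array labelled V2 WT replicate 5 (immV2), shown apart above, E2f2 was 10.95 (nearest 8.45), Cenpf 9.76 (nearest 8.52) and Cdkn2c 9.94 (nearest 8.33). Ccna2 was 11.16 in V2 WT replicate 3 (immV2), against 12.19 in the nearest array.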

How the results depend on the processing

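In V2 WT minus DP WT, 4 members passed; with all 13 arrays as labelled 0 did, with quantile normalization 7 (Cdc20, Cdkn1b and Ube2c added), with only the 2 groups in the fit 7 (Ccne2, Nusap1 and Rrm2 added), and leaving out 1 array at a time 2 to 9. Of the V2imm cKO arrays, leaving out replicate 4 gave 9 and replicate 5 gave 7, and the count was 2, Ccnd2 and E2f2, without DP WT replicate 5 or without V2 WT replicate 3 (immV2). In V2 cKO minus DP cKO, 5 passed; with all 13 arrays 0 did, with only the 2 groups 3 (Ccnd3 and Cdkn1b lost), and leaving out 1 array 4 to 7. In every setting run, 0 members passed in either knockout comparison or the interaction, and no called member changed sign. Over all genes, 962 calls in WT became 477 to 1575 when 1 array was left out, 594 without the title set covariate and 11 with 13 arrays, and 1076 calls in cKO became 480 to 1632, 637 and 7. For the knockout in V2 the 0 calls became 13 with quantile normalization, 9 with a filter on low values, 6 with robust moderation or V2imm arrays only and 44 without V2 cKO replicate 5 (V2imm). V2imm arrays only and immV2 arrays only were chosen after seeing the data. With a fixed replicate block (2 residual degrees of freedom, knockout comparisons) 0 members passed, with 34 genes in V2 and 8 in DP, and the member median in DP went from -0.0812 to -0.277, the value of replicate 3 alone, the 1 number that both DP genotypes share among the 11 arrays. With a random replicate block 5 members passed in WT, 5 in cKO and 0 for the knockout. The cause of these moves was not tested.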
